A study of Mus musculus with 11 samples.

Results

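The genes described here are 9 mouse genes that encode DNA methyltransferases, their cofactors and enzymes that oxidise 5-methylcytosine or remove its oxidised forms: Dnmt1, Dnmt3a, Dnmt3b, Dnmt3l, Uhrf1, Tet1, Tet2, Tet3 and Tdg. They were taken by symbol from the 54838 Ensembl genes counted, and all 9 were among the 16073 genes tested. The RNA came from E14 embryonic stem cells (ESC), an established mouse line grown on gelatin in GMEM with knockout serum replacement and LIF. It was collected 36 h after transfection with a scrambled control siRNA (3 libraries), CMTR1 siRNA 1 (4 libraries) or CMTR1 siRNA 2 (4 libraries). CMTR1 is the enzyme that methylates the ribose of the first transcribed nucleotide of mRNA, and the design asks which transcripts change when it is depleted. All cells were transfected, so each group carries an siRNA, and no untransfected cells were among the libraries.

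DNMT1 is the maintenance methyltransferase, which copies methylation of CpG sites to the new strand at replication and is brought there by UHRF1. DNMT3A and DNMT3B set new methylation, and DNMT3L, which has no catalytic activity of its own, stimulates them. The TET enzymes oxidise 5-methylcytosine to 5-hydroxymethylcytosine and further, and TDG excises the most oxidised forms for base excision repair. ESC are known for strong expression of Tet1 and Tet2 and of the de novo methyltransferases with Dnmt3l, and for little Tet3, which rises on differentiation. Only RNA was measured, and no methylation of DNA.

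The libraries held 6738478 to 8382318 counts, and the unit used is CPM, a gene's counts scaled to a common library total. All 7 ESC markers were tested and together reached 1003 to 1331 CPM in every library. The marker lists of primitive endoderm and of fibroblasts summed to 25.19 to 42.91 and 21.95 to 38.65 CPM, and the fibroblast gene Lum had at most 1 count in a library. Those of primed epiblast, neural and trophoblast markers summed to 268.8 to 318.2, 101.0 to 138.0 and 35.46 to 51.05 CPM. Cmtr1 itself was low, at 110 to 176 counts per library. It had 20.3 ± 2.10 CPM in control (SD, n = 3), 19.2 ± 2.45 with CMTR1 siRNA 1 (n = 4) and 17.1 ± 1.68 with CMTR1 siRNA 2 (n = 4). Neither difference passed the test (log2 fold change −0.088, FDR 0.743, and −0.25, FDR 0.144), and all 3 groups overlapped, so the Cmtr1 counts did not separate the libraries by their labels. Cmtr1 shares 3525 nt of exon sequence on its own strand with Gm28043 and Gm28052, and reads lying in more than 1 gene are ambiguous for a counter.

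The FDR throughout is the Benjamini-Hochberg adjusted p from edgeR's quasi-likelihood test over all 16073 genes, and a gene was called at an FDR of at most 0.05. CMTR1 siRNA 1 gave calls for 2 of the 9 genes, Tet2 lower and Tet3 higher, against 4.67% of all genes tested (1.97% lower and 2.71% higher). CMTR1 siRNA 2 gave calls for 5 of the 9, against 9.72% of all genes (3.55% lower and 6.17% higher): Tet2, Tet1 and Dnmt3b were lower and Tet3 and Dnmt3l higher. That count was 2 without control replicate 3, and 3 without control replicate 2 or CMTR1 siRNA 2 replicate 1. The balance of directions over all genes depended on the scaling. With TMM factors the shares were 2.49% lower and 2.15% higher for CMTR1 siRNA 1, and 4.57% lower and 4.53% higher for CMTR1 siRNA 2. The median log2 fold change of the 9 genes was −0.034 and −0.012 for the siRNAs, beside 0.024 and 0.029 over all genes tested. Both comparisons use the same 3 control libraries, so they are not independent of each other. RNA was taken from whole cultures, in which fewer cells of a type and less RNA per cell cannot be told apart.

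**Figure D1:**
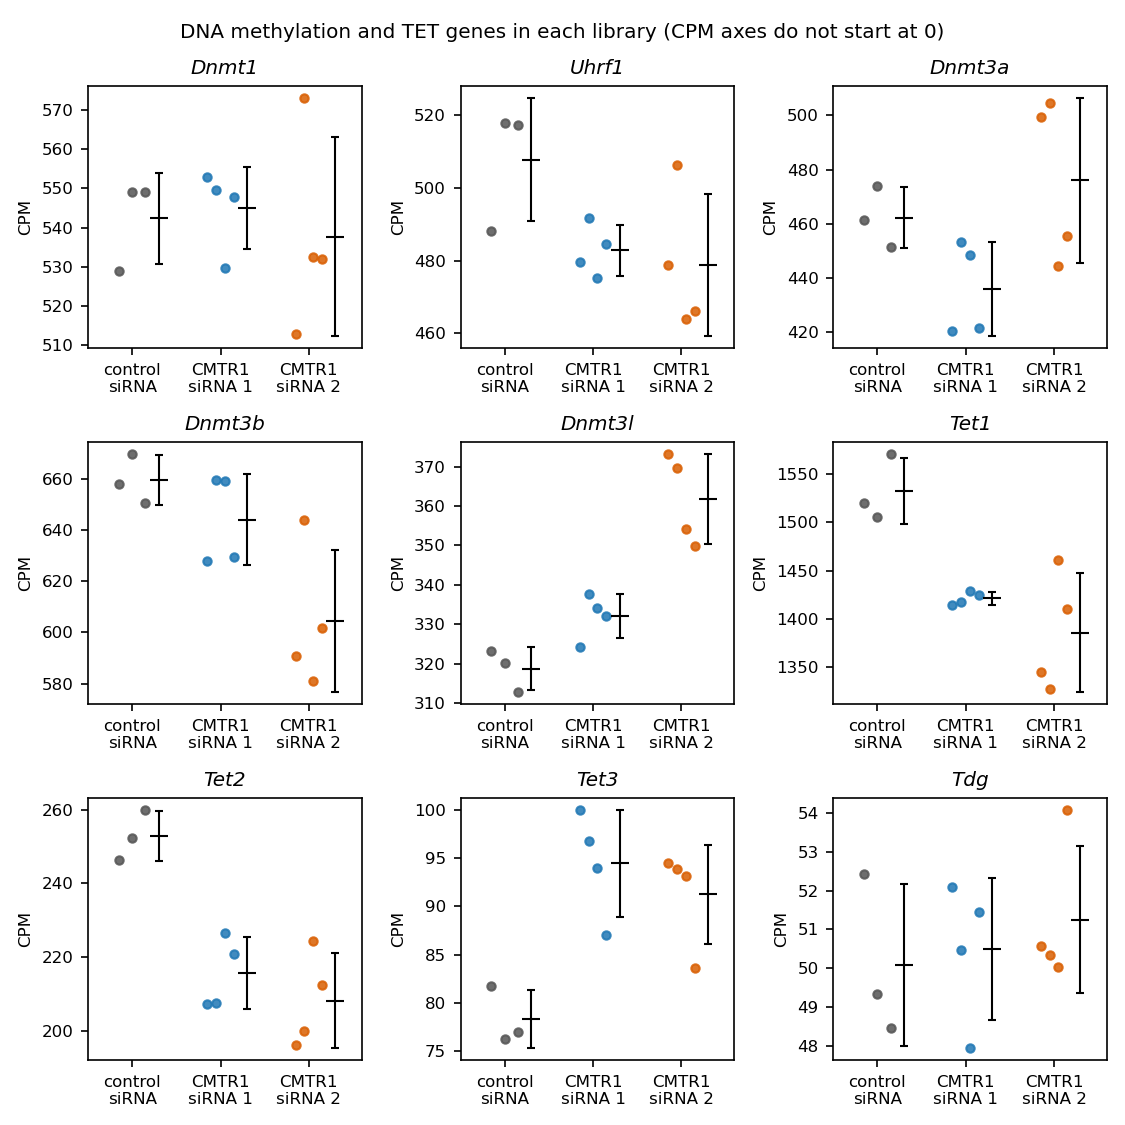
CPM of each of the 9 genes (y axis, not starting at 0) in every library of the control siRNA, CMTR1 siRNA 1 and CMTR1 siRNA 2 groups, with a bar for the mean and SD. Tet2 lies lower and Tet3 higher than control in all 8 CMTR1 siRNA libraries.

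The libraries of a group did not overlap those of control for 4 of the 9 genes with CMTR1 siRNA 1 (Dnmt3l, Tet1, Tet2 and Tet3), against 15.5% of all genes. With CMTR1 siRNA 2 the 5 called genes, and no others of the 9, did not overlap control, against 19.4% of all genes. A two-sided exact permutation test of a single gene cannot give less than p = 0.0571 with 3 against 4 libraries, and these genes had that value. Counts of the 9 genes ran from 351 to 12213 per library. The counting error, averaged over the libraries of a group, was 0.915 to 5.16%. The SD between libraries of a group was 0.484 to 6.4% of the mean.

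Of the TET genes, Tet2 and Tet3 passed the test with both siRNAs and Tet1 with CMTR1 siRNA 2 alone. Tet2 (chromosome 3, 133463679 to 133545139, minus strand, GRCm38) had 246.3, 252.4 and 259.9 CPM with the control siRNA. It was at 207.2, 207.5, 226.6 and 220.9 CPM with CMTR1 siRNA 1, and at 196.0, 199.8, 224.3 and 212.5 CPM with CMTR1 siRNA 2. The highest library of either siRNA was below the lowest control library. Tet2 fell by 14.7% with CMTR1 siRNA 1 (log2 fold change −0.23, SE 0.0488, 95% interval −0.33 to −0.13, FDR 0.00224) and by 17.7% with CMTR1 siRNA 2 (−0.28, SE 0.0488, −0.38 to −0.18, FDR 9.53e-05). Both calls held under all 19 alternative settings, with a highest FDR of 0.0284 for CMTR1 siRNA 1 and 0.00269 for CMTR1 siRNA 2. The siRNAs did not differ from each other for Tet2 beyond the test (−0.051, 95% interval −0.14 to 0.040, FDR 0.585).

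Tet3 (chromosome 6, 83362373 to 83459084, minus strand) went the other way. Its control libraries had 81.77, 76.22 and 76.99 CPM. It had 100.0, 96.84, 94.04 and 87.01 CPM with CMTR1 siRNA 1, and with CMTR1 siRNA 2 94.46, 93.89, 93.16 and 83.6 CPM. All 8 libraries were above the highest control, replicate 4 of CMTR1 siRNA 2 by the least. Tet3 rose 1.21-fold with CMTR1 siRNA 1 (log2 fold change 0.27, SE 0.0598, 95% interval 0.15 to 0.39, FDR 0.00355) and 1.17-fold with CMTR1 siRNA 2 (0.22, SE 0.0598, 0.10 to 0.34, FDR 0.0132). The first call held under all 19 settings. The second was lost with DESeq2 (FDR 0.0597) and without control replicate 2 (0.0814) or control replicate 3 (0.0671). The log2 difference of CMTR1 siRNA 2 from CMTR1 siRNA 1 was −0.050 (95% interval −0.16 to 0.057, FDR 0.667).

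Tet1 (chromosome 10, 62804570 to 62908996, minus strand), the most counted of the 9 genes, had 1520, 1506 and 1571 CPM in control. It had 1414, 1418, 1429 and 1425 CPM with CMTR1 siRNA 1 and 1345, 1327, 1461 and 1410 CPM with CMTR1 siRNA 2. Every CMTR1 siRNA library was again below every control library, and the 4 of CMTR1 siRNA 1 lay closer together than those of any other group. Tet1 fell by 9.59% with CMTR1 siRNA 2 (log2 fold change −0.15, SE 0.0402, 95% interval −0.22 to −0.067, FDR 0.0147), a call lost without control replicate 3 (FDR 0.11) or CMTR1 siRNA 2 replicate 1 (0.0635). For CMTR1 siRNA 1 the log2 fold change was −0.11 (95% interval −0.19 to −0.030, FDR 0.12) and did not pass, though it did with DESeq2 (−0.13, FDR 0.0167). The siRNAs differed from each other by −0.037 (95% interval −0.11 to 0.036, FDR 0.636).

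**Figure D2:**
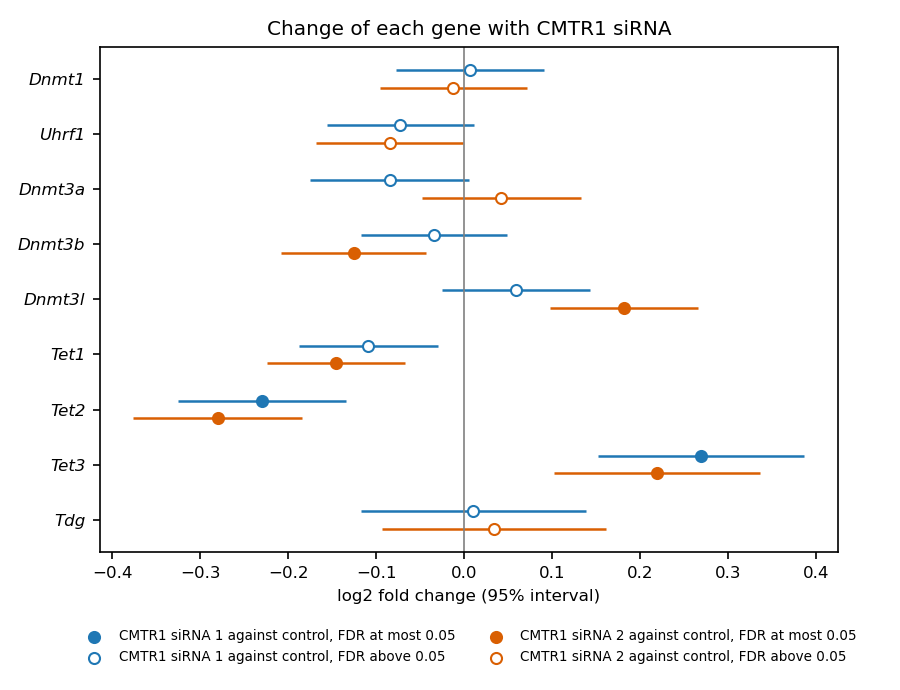
log2 fold change against control (x axis) of the 9 genes for CMTR1 siRNA 1 and CMTR1 siRNA 2, with 95% intervals. Filled points passed an FDR of 0.05: 2 genes for CMTR1 siRNA 1 and 5 for CMTR1 siRNA 2.

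Ratios of counts within a library do not depend on its total, and are given as values with no test. The ratio of Tet2 to Tet3 counts was 3.01 to 3.38 in control, 2.07 to 2.54 with CMTR1 siRNA 1 and 2.08 to 2.54 with CMTR1 siRNA 2. Neither siRNA overlapped control, and the means of both siRNAs were 2.29 beside 3.23 in control. The ratio of Tet1 to Tet3 went from 19.6 ± 0.925 in control (SD, n = 3) to 15.1 ± 0.964 with CMTR1 siRNA 1 and 15.2 ± 1.30 with CMTR1 siRNA 2 (n = 4 each). Tet1 to Tet2 stood at 6.06 ± 0.101, 6.60 ± 0.267 and 6.66 ± 0.145, so Tet2 counts were lower relative to Tet1 in all 8 CMTR1 siRNA libraries.

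**Figure D3:**
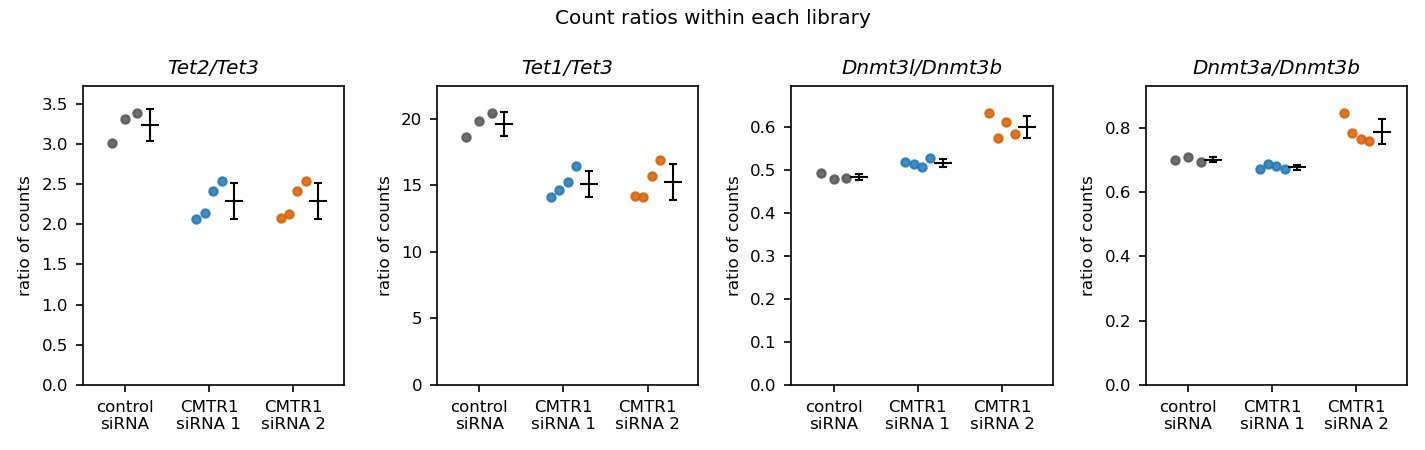
Ratio of counts of 2 genes within each library (y axis, from 0) for Tet2/Tet3, Tet1/Tet3, Dnmt3l/Dnmt3b and Dnmt3a/Dnmt3b, by siRNA group, with a bar for the mean and SD. No CMTR1 siRNA library lies within the range of the control libraries in any of the 4 ratios.

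Because the 3 TET genes differed in direction, the stretch before the RefSeq start of each is shown (GRCm38.p6, minus strand, 100 bases and the first transcribed base, 5′ to 3′, CpG sites in capitals). Each of the 3 has 1 start in the RefSeq promoter table. The Ensembl gene models begin further upstream for all 3, and counts per gene do not tell from which start RNA was made. The stretches are Tet1 at chr10:62887324-62887424, Tet2 at chr3:133544390-133544490 and Tet3 at chr6:83441678-83441778.
Tet1: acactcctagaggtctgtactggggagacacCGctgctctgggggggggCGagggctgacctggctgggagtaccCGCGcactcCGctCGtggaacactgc
Tet2: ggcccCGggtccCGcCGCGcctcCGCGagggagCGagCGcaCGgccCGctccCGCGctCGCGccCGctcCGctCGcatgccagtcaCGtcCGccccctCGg
Tet3: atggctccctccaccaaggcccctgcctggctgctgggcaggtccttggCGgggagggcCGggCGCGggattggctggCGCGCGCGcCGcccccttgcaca

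The stretch of Tet2 holds 20 CpG sites, that of Tet3 9 and that of Tet1 6. In the full window of 300 bases (250 before the start) Tet2 had 57 CpG sites, a number that 0.152% of the 32851 RefSeq promoters reach. Tet3 had 22 (23.1% of promoters have as many) and Tet1 17 (31.4%), beside a median of 7. Outside the TET genes, Dnmt3a, which was not called, had 46 (1.65%), Dnmt3b 30, Tdg 26, Uhrf1 12, Dnmt3l 6 and Dnmt1 2. Dnmt1, Dnmt3a and Dnmt3l have 3 RefSeq starts each and Uhrf1 has 2, and the window of only 1 start was read for each. That of Dnmt1 lies at the 5′ end of its Ensembl gene. Which start these cells used is not known, so these values may not describe the promoter in use. The CCAAT box (letters CCAAT, on either strand) was found in the window of Tet3 and in 37.4% of all promoters. It was also found for Dnmt1, Uhrf1 and Tdg, which were not called. The TATA box (TATAAA, 13.6% of all promoters), the E-box (CACGTG, 7.15%) and an ETS motif (CCGGAAG, 8.86%) were not found in the windows of the 3 TET genes. A link between these sequences and the changes in RNA was not tested.

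Tdg (chromosome 10, 82629828 to 82650799, plus strand), which acts after the TET enzymes, was measured at 47.94 to 54.08 CPM over all 11 libraries, with overlapping groups. Its log2 fold change was 0.011 with CMTR1 siRNA 1 (95% interval −0.12 to 0.14, FDR 0.961) and 0.034 with CMTR1 siRNA 2 (−0.093 to 0.16, FDR 0.811). Differences beyond these intervals were not detected, and with 351 to 438 counts per library Tdg was the least deeply counted of the 9 genes. Tdg shares 367 nt of exon sequence with Glt8d2 on the opposite strand, and whether the counts were made by strand is not given in the sources used here.

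Of the genes of de novo methylation, Dnmt3l (chromosome 10, 78041947 to 78063622, plus strand) had the highest log2 fold change with CMTR1 siRNA 2. It had 323.3, 320.2 and 312.8 CPM in control, 324.3, 337.6, 334.1 and 332.1 CPM with CMTR1 siRNA 1, and 373.2, 369.7, 354.2 and 349.9 CPM with CMTR1 siRNA 2. The 3 groups did not overlap, with CMTR1 siRNA 1 between the others. Dnmt3l rose 1.14-fold with CMTR1 siRNA 2 (log2 fold change 0.18, SE 0.0430, 95% interval 0.098 to 0.27, FDR 0.00376), a call that held under all 19 settings with FDRs up to 0.036. Its log2 fold change with CMTR1 siRNA 1 was 0.059 (−0.025 to 0.14, FDR 0.532).

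Dnmt3l was also the 1 gene of the 9 called between the siRNAs, higher with CMTR1 siRNA 2 than with CMTR1 siRNA 1 (log2 fold change 0.12, SE 0.0397, 95% interval 0.045 to 0.20, FDR 0.0467, exact permutation p = 0.0286, the smallest that 4 against 4 libraries allow). In that comparison 7.44% of all genes were called (2.96% lower and 4.49% higher), and the groups did not overlap for 11.8% of all genes and for 1 of the 9. The call lay close to the threshold. It was lost with TMM factors (FDR 0.0635) and under 4 other settings (0.0545 to 0.087), and without any single control library, any CMTR1 siRNA 1 library or CMTR1 siRNA 2 replicate 1 or 2 (FDR 0.0514 to 0.159).

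Dnmt3b (chromosome 2, 153649450 to 153687730, plus strand) had 658.1, 669.7 and 650.6 CPM in control, 627.7, 659.4, 659.2 and 629.4 with CMTR1 siRNA 1, and 590.9, 643.9, 580.9 and 601.7 with CMTR1 siRNA 2. The CMTR1 siRNA 1 libraries overlapped control, and those of CMTR1 siRNA 2 were all below it. Dnmt3b fell by 8.34% with CMTR1 siRNA 2 (log2 fold change −0.13, SE 0.0423, 95% interval −0.21 to −0.043) at an FDR of 0.0497, next to the threshold. The call was lost with no filter on low counts (0.0709) and with only the 2 groups in the fit (0.0713). It was also lost without any single control library, CMTR1 siRNA 1 replicate 2 or 4, or CMTR1 siRNA 2 replicate 1, 3 or 4 (0.0654 to 0.179). The log2 fold change with CMTR1 siRNA 1 was −0.034 (FDR 0.75). Dnmt3c, a duplicate of Dnmt3b found in rodents, had 21 counts over all libraries and was not tested.

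Dnmt3a (chromosome 12, 3806007 to 3914443, plus strand) had 451.3 to 474.0 CPM in control, 420.3 to 453.2 with CMTR1 siRNA 1 and 444.5 to 504.5 with CMTR1 siRNA 2. Both siRNA groups overlapped control (log2 fold change −0.084, FDR 0.358, and 0.043, FDR 0.63). Between the siRNAs Dnmt3a differed by 0.13 in log2 (95% interval 0.043 to 0.21, FDR 0.0592), which did not pass, and passed without CMTR1 siRNA 2 replicate 3 (0.0135) or replicate 4 (0.0427). Within the CMTR1 siRNA 2 group, replicates 1 and 2 had 499.6 and 504.5 CPM and replicates 3 and 4 had 444.5 and 455.5 CPM.

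The ratio of Dnmt3l to Dnmt3b counts was 0.483 ± 0.00694 in control, 0.516 ± 0.00887 with CMTR1 siRNA 1 and 0.599 ± 0.0264 with CMTR1 siRNA 2. Dnmt3l to Dnmt3a stood at 0.690 ± 0.0130, 0.762 ± 0.0212 and 0.761 ± 0.0278, above control with both siRNAs. Dnmt3a to Dnmt3b was 0.694 to 0.708 in control, below that with CMTR1 siRNA 1 (0.670 to 0.687) and above it with CMTR1 siRNA 2 (0.757 to 0.845).

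The maintenance genes were not called in any comparison. Dnmt1 (chromosome 9, 20907209 to 20959888, minus strand) averaged 542.4 ± 11.7 CPM in control, 544.9 ± 10.5 with CMTR1 siRNA 1 and 537.7 ± 25.3 with CMTR1 siRNA 2. The 95% intervals of its log2 fold changes against control were −0.077 to 0.090 and −0.096 to 0.072. Uhrf1 (chromosome 17, 56303321 to 56323486, plus strand) averaged 507.7 ± 16.9, 482.8 ± 7.06 and 478.7 ± 19.5 CPM, with log2 fold changes of −0.073 (−0.16 to 0.011, FDR 0.402) and −0.085 (−0.17 to −0.0011, FDR 0.223). Its CMTR1 siRNA libraries overlapped the lowest control library, at 488.2 CPM. The ratio of Dnmt1 to Uhrf1 counts was 1.06 to 1.08 in control, 1.11 to 1.15 with CMTR1 siRNA 1 and 1.07 to 1.15 with CMTR1 siRNA 2. Maintenance methylation follows replication, and of 18 S-phase genes edgeR called 0 with CMTR1 siRNA 1 (1 at an unadjusted p under 0.05, and 0 by DESeq2). It called 1 lower (Cdt1, the licensing factor, −0.18, FDR 0.0143) with CMTR1 siRNA 2, where 5 had an unadjusted p under 0.05 and DESeq2 called 4. Of all genes tested, edgeR called 4.67% and 9.72%. The median log2 fold change of the 18 genes was −0.026 and −0.078, beside 0.024 and 0.029 over all genes tested. The Cdt1 call was lost without control replicate 3 (0.136) or CMTR1 siRNA 2 replicate 4 (0.0518).

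Levels of different genes were compared per kilobase of merged exon sequence. In the control libraries the order was Dnmt3b at 129.2 ± 1.89 CPM per kb, Uhrf1 at 119.2 ± 3.98, Dnmt3l at 106.7 ± 1.80, Tet1 at 99.2 ± 2.22 and Dnmt1 at 73.5 ± 1.58. Below them came Dnmt3a at 27.8 ± 0.684, Tet2 at 15.0 ± 0.403, Tdg at 9.32 ± 0.389 and Tet3 at 4.69 ± 0.180 CPM per kb (SD, n = 3 each). No neighbours in that order overlapped in their control libraries. Among the TET genes Tet1 was the most abundant per length and Tet3 the least. With CMTR1 siRNA 2, Dnmt3l stood first at 121.1 ± 3.82, followed by Dnmt3b at 118.4 ± 5.42 and Uhrf1 at 112.4 ± 4.58 CPM per kb, and the ranges of these neighbours overlapped. In the CMTR1 siRNA 1 libraries Dnmt3b was first at 126.1 ± 3.48, and Uhrf1 and Dnmt3l overlapped. The place of Dnmt3l depended on the length used: per kilobase of the longest coding transcript it was first in control too, at 174.9 CPM per kb, and the other 8 genes kept their order.

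The genes whose log2 CPM ran most like the called genes over the 11 libraries are given as a description, since all points share libraries and scaling. Among 8305 genes with a mean log2 CPM of at least 4, Tet2 was followed most closely by Kat6b (Pearson r = 0.969), Hmces (0.969) and Spag5 (0.963). For Tet1 they were Tet2 (0.953), Spag5 (0.953) and Togaram1 (0.941). Tet3 was nearest to Slc39a14 (0.936), Gbf1 (0.935) and Smarce1 (0.933), and Dnmt3l to Lrch2 (0.971), Trim44 (0.97) and Piwil2 (0.968). Dnmt3b was nearest to Hist1h2bh (0.969), Mcm7 (0.927) and Rpl29 (0.924).

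Among 24 tested genes of a list drawn up for methyltransferase partners and readers of methylated CpG, 5 were lower and 0 higher with CMTR1 siRNA 1. Over all genes 1.97% were lower and 2.71% higher. These were Ahcy, which clears S-adenosylhomocysteine (−0.31 in log2, FDR 0.000661), Mat2a, which makes the methyl donor S-adenosylmethionine (−0.20, FDR 0.00214), Zfp42 (−0.32, FDR 0.00154), the H3K9 methyltransferase gene Ehmt2 (−0.21, FDR 0.016) and Zfp57, which guards imprints (−0.17, FDR 0.0432). Without control replicate 3 the count was 3, as Ehmt2 (FDR 0.164) and Zfp57 (0.0914) were lost. With CMTR1 siRNA 2, 4 were lower and 2 higher, against 3.55% and 6.17% of all genes. Zfp42 (−0.31, FDR 0.00123), Ahcy (−0.28, FDR 0.0013), Trim28, the corepressor that ZFP57 recruits (−0.15, FDR 0.00835), and Zfp57 (−0.15, FDR 0.0476) were lower. Uhrf2, the paralogue of Uhrf1 (0.27, FDR 0.00117), and the methyl-CpG binding gene Mbd2 (0.35, FDR 0.0116) were higher. The median log2 fold change of the 24 genes was −0.014 and −0.035, beside 0.024 and 0.029 over all genes tested. Zfp42 is also in the list of ESC markers, so its calls are counted in both lists.

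Ahcy had 84.7 to 90.8 CPM in control, 68.5 to 73.8 with CMTR1 siRNA 1 and 67.2 to 77.5 with CMTR1 siRNA 2. Mat2a separated the siRNAs, at 552 to 603 CPM in control, 477 to 505 with CMTR1 siRNA 1 and 538 to 584 with CMTR1 siRNA 2 (CMTR1 siRNA 2 against CMTR1 siRNA 1, 0.17 in log2, FDR 0.00391), and it was the 1 call of this list in that comparison. Uhrf2 rose from 70.3 to 78.8 CPM in control to 89.5 to 93.3 with CMTR1 siRNA 2, while Uhrf1 was not called. The CMTR1 siRNA 2 calls of Trim28, Mbd2 and Zfp57 were each lost on leaving out 1 library: Trim28 without control replicate 3 (FDR 0.058), and Mbd2 without control replicate 2 (0.112) or CMTR1 siRNA 2 replicate 1 (0.0634). With all libraries kept, the Mbd2 call was lost with DESeq2 (0.0523). Zfp57 was lost without any single control library, CMTR1 siRNA 1 replicate 2 or 4, or CMTR1 siRNA 2 replicate 1 or 2 (FDRs up to 0.26). Zfp57 was also lost with no filter on low counts (0.0579) and with only the 2 groups in the fit (0.0605). Its CMTR1 siRNA 1 call was lost without control replicate 2 or 3 or CMTR1 siRNA 1 replicate 1, 2 or 4 (up to 0.284).

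Of 21 tested partners of the TET enzymes and genes of base excision repair, 1 was lower and 2 higher with CMTR1 siRNA 1, and 2 lower and 1 higher with CMTR1 siRNA 2. Over all genes tested 4.67% and 9.72% were called. Hmces, a protein that binds abasic sites, was at 51.4, 51.7 and 53.4 CPM in control, at 31.0, 34.5, 40.9 and 41.0 with CMTR1 siRNA 1 and at 33.2, 33.2, 42.1 and 37.4 with CMTR1 siRNA 2. All 8 CMTR1 siRNA libraries lay below control (−0.50 in log2, FDR 7.53e-05, and −0.52, FDR 2.17e-05). Cxxc4, an inhibitor of TET2, was at 2.15 to 2.84 CPM in control, at 3.56 to 5.36 with CMTR1 siRNA 1 and at 3.34 to 5.26 with CMTR1 siRNA 2 (0.88, FDR 0.0152, and 0.81, FDR 0.0182).

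Both Cxxc4 calls were lost without control replicate 1 or 3, and also without CMTR1 siRNA 1 replicate 2 or CMTR1 siRNA 2 replicate 1 for the siRNA concerned (FDR 0.0706 to 0.0905). The CMTR1 siRNA 2 call was also lost with DESeq2 (FDR 0.0676). Ogt, whose product O-GlcNAc transferase binds TET proteins, was higher with CMTR1 siRNA 1 (0.17, FDR 0.0255), a call lost with TMM factors (0.0543) and without control replicate 2 or 3 or CMTR1 siRNA 1 replicate 2 (0.137 to 0.154). Gadd45a, proposed to act in demethylation, fell with CMTR1 siRNA 2 (−0.26, FDR 0.00682), and the call was lost without control replicate 2 (0.0582). The count for CMTR1 siRNA 1 was 1 without control replicate 3 or CMTR1 siRNA 1 replicate 2. Between the siRNAs Xrcc1, a scaffold of base excision repair, was lower with CMTR1 siRNA 2 (−0.22, FDR 0.0111), the 1 call of this list, lost without CMTR1 siRNA 1 replicate 1 (0.0849) or 2 (0.0608). The list's median log2 fold change was 0.0059 with CMTR1 siRNA 1 and −0.026 with CMTR1 siRNA 2.

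Germline genes whose promoters are known to be silenced by DNA methylation in other cells differed between the siRNAs. Of the 11 tested, Tex101 passed the filter on low counts only through its CMTR1 siRNA 2 libraries and is left out of the counts. For CMTR1 siRNA 1 edgeR called 0 of the other 10 (0 at an unadjusted p under 0.05, and 0 by DESeq2), and 0 were separate from control. For CMTR1 siRNA 2, 10 of 10 were called higher and were separate from control, against 6.17% of all genes called higher and 19.4% not overlapping. In the test of one siRNA against the other 9 of 10 were higher with CMTR1 siRNA 2, against 4.49% of all genes. The list was written from general knowledge with earlier results of these data known. The median log2 fold change of the 10 was 0.16 with CMTR1 siRNA 1 and 0.76 with CMTR1 siRNA 2. The summed level of all 12 genes of the list, Tex101 and Asz1 included, was 109.8 to 119.7 CPM in control. It was 114.3 to 129.3 with CMTR1 siRNA 1 and 186.6 to 221.7 with CMTR1 siRNA 2. Tex101 itself had 0.863 to 1.21 CPM in control, 0.535 to 1.06 with CMTR1 siRNA 1 and 2.47 to 3.10 with CMTR1 siRNA 2. Asz1 was too low to be tested.

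Dazl, an RNA-binding protein of germ cells, had 13.6, 11.1 and 11.4 CPM in control, 12.8, 15.8, 15.3 and 12.6 with CMTR1 siRNA 1 and 36.4, 34.1, 32.6 and 31.1 with CMTR1 siRNA 2. The CMTR1 siRNA 1 libraries overlapped control, and the CMTR1 siRNA 2 libraries were 2.78-fold higher on average (1.48 in log2, SE 0.103, FDR 3.61e-14). Taf7l, a germ-cell TFIID subunit, went from 5.38 to 5.97 CPM in control to 13.9 to 15.6 with CMTR1 siRNA 2 (1.42, FDR 1.15e-09). Mov10l1 (0.80, FDR 4.21e-08), Ddx4 (0.72, FDR 3e-05) and Mael (0.62, FDR 6e-05), of the piRNA pathway, and Hormad1, of meiotic chromosome axes (0.58, FDR 6.12e-05), followed. Between the siRNAs Dazl (1.24, FDR 3.04e-13), Taf7l (1.17, FDR 7.07e-09), Mael (0.79, FDR 3.07e-07), Hormad1 (0.71, FDR 6.95e-07) and Mov10l1 (0.63, FDR 9.89e-07) had the lowest FDRs. Under the 19 settings 9 or 10 of the 10 genes were called for CMTR1 siRNA 2 against control, and 7 to 10 for CMTR1 siRNA 2 against CMTR1 siRNA 1.

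**Figure D4:**
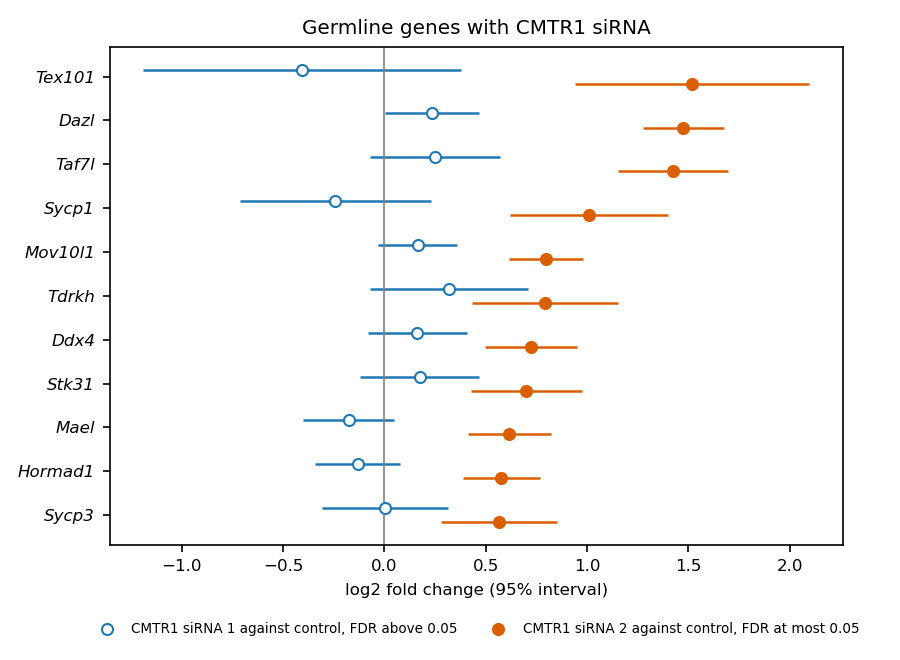
log2 fold change against control (x axis) with 95% intervals of the 11 tested germline genes for CMTR1 siRNA 1 and CMTR1 siRNA 2. All are filled (FDR at most 0.05) for CMTR1 siRNA 2 and open for CMTR1 siRNA 1, and Tex101 was tested only because it was above the filter with CMTR1 siRNA 2.

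Other marker genes moved with CMTR1 siRNA 2 beside the rise of Dnmt3l and of the germline genes, and their part in it was not tested. Over all genes 6.17% were called higher. The 2-cell-like markers (4 tested, 3 called higher: Zscan4d, Usp17lc and Zscan4f) summed to 15.07 to 16.89 CPM in control, 13.23 to 17.57 with CMTR1 siRNA 1 and 24.13 to 27.84 with CMTR1 siRNA 2. Tcstv3 of that list had at most 6 counts in a library. The call of Usp17lc was lost without any single control library or CMTR1 siRNA 2 replicate 1 or 2 (FDR 0.0592 to 0.0882), and that of Zscan4f without control replicate 2 or 3 or CMTR1 siRNA 2 replicate 1 or 4 (0.0504 to 0.141). The fibroblast markers (4 tested, 2 called higher: Col1a1 and Dcn) summed to 21.95 to 26.25, 23.66 to 28.05 and 33.38 to 38.65 CPM, with Lum at 0 or 1 count. DESeq2 called 1 gene of each list (Zscan4d and Col1a1), with Zscan4f at an FDR of 0.0743 and no adjusted p for Usp17lc and Dcn. Beside the calls of Tet2 and Tet3, ESC markers were called lower with both siRNAs. They were 6 of 7 with CMTR1 siRNA 1 and 5 of 7 with CMTR1 siRNA 2, against 1.97% and 3.55% of all genes. The summed level of the 7 went from 1198 to 1331 CPM in control to 1003 to 1162 and 1056 to 1115 CPM. With 1 library left out or another tool, 4 to 6 were called for CMTR1 siRNA 1 and 5 for CMTR1 siRNA 2. Nanog, for example, was at 76.3 to 92.3 CPM in control, 49.1 to 69.7 with CMTR1 siRNA 1 and 47.3 to 67.9 with CMTR1 siRNA 2. Sox2 was called with neither siRNA (−0.041 in log2, FDR 0.738, and −0.12, FDR 0.125). Pou5f1 was not called with CMTR1 siRNA 2 (−0.033, FDR 0.72). The part of the ESC markers in the Tet2 and Tet3 differences was not tested.

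The remaining lists gave few calls. Of 5 primitive endoderm markers edgeR called 0 with either siRNA (0 at an unadjusted p under 0.05, and 0 by DESeq2). Of 4 tested trophoblast markers edgeR and DESeq2 called 0 against control (1 and 2 at an unadjusted p under 0.05), and Tfap2c differed between the siRNAs (−0.40, FDR 0.000549). Of 5 primed epiblast markers, Pou3f1 was higher with CMTR1 siRNA 2 (0.22, FDR 0.0169), a call lost with DESeq2 (0.0826) and without control replicate 2 or 3 or CMTR1 siRNA 2 replicate 1 or 2 (0.0622 to 0.13). Of 3 tested neural markers, Nes was higher with both siRNAs (0.26, FDR 0.0152, and 0.45, FDR 6.23e-06). The first of these was lost with DESeq2 (0.051) and without control replicate 2 (0.168) or CMTR1 siRNA 1 replicate 1 (0.0631) or 2 (0.0656). The other neural markers did not follow Nes. Pax6 had log2 fold changes of 0.38 (FDR 0.0887) and −0.30 (FDR 0.188) and was lower with CMTR1 siRNA 2 than with CMTR1 siRNA 1 (−0.68, FDR 0.000312), and Sox1 had 0.26 (FDR 0.129) and 0.028 (FDR 0.905).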

How the data were processed

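The authors deposited counts: for each of 11 libraries of rRNA-depleted, directional RNA from E14 ESC, a whole number of reads per Ensembl gene. Their methods name Cutadapt for trimming, STAR for alignment to GRCm38, Picard for removal of duplicates and featureCounts for counting. Of the 11 files, 10 end with read totals laid out as HTSeq-count does, which were left out: reads in no gene were 39.3 to 44.3% of those listed, ambiguous reads 0.963 to 1.05% and reads aligned to more than 1 place 5.79 to 6.32%. Removing duplicates can cap the counts of abundant genes, and reads shared by near-identical genes can be lost. Of the gene identifiers, 54809 of 54838 matched GENCODE vM21 for symbols and exon lengths. Gm26917 took 4.86 to 6.34% of counts.

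Genes with more than 1 CPM in at least 4 libraries were tested with edgeR 4.0.16 (R 4.3.3, quasi-likelihood, total counts as library sizes, 1 model of 3 groups). Intervals are the estimate ± 1.96 SE, the SE being the absolute log2 fold change divided by the square root of the test's F. With the normal value 1.96 they are slightly narrower than the test implies. That of Uhrf1 with CMTR1 siRNA 2 excludes 0, though its unadjusted quasi-likelihood p is 0.0534. Single genes were also compared by a two-sided exact permutation test of log2(CPM + 0.5). The 19 alternatives were TMM factors, DESeq2 1.42.0, exactTest, 2 other filters, the groups compared alone, replicate number as a block, library sizes without Gm26917, and each of 11 libraries left out. The code was tested on simulated counts.

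The genes and lists were chosen with earlier results of these data known. All 9 genes are named. From each list up to 6 called genes per comparison are named in order of FDR, and for each gene called against control the 3 genes most like it. The germline figure, the mentions of Asz1, Dnmt3c, Lum and Tcstv3, and the alternatives for the lists came later, with the values known. No libraries were identical, and replicates of a group differed by more than sampling noise (chi-square per gene 1.29 to 2.82 over 15 pairs). The study's methods call its 3 sequencing replicates biological, but neither they nor the labels tie the 3 or 4 libraries of a group to separate cultures, so p-values measure the spread between these libraries, which may be technical. Tables and figures were made in Python 3.11.15 (pandas 2.3.3, matplotlib 3.10.9).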

Additional observations from a re-analysis of the deposited data

Results flagged for a closer look

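Of 18 groups of 4 libraries checked (9 genes with each CMTR1 siRNA), 2 had a library far from the other 3, where chance gives about 1 in 20. Tet3 in the CMTR1 siRNA 2 group had 83.6 CPM in replicate 4, a gap of 0.88 of the group's range, and Tdg in the same group had 54.08 CPM in replicate 4, a gap of 0.864. Replicate 4 of CMTR1 siRNA 2 was thus the library nearest to control for Tet3.

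The effects of the siRNAs differed by edgeR's test of CMTR1 siRNA 2 against CMTR1 siRNA 1 for 20 named genes. Dnmt3l differed by 0.12 in log2. In the methyltransferase and TET partner lists, Mat2a differed by 0.17 and Xrcc1 by −0.22. Of the germline genes, Dazl differed by 1.24, Taf7l by 1.17, Mael by 0.79, Hormad1 by 0.71, Mov10l1 by 0.63 and Tex101, which passed the filter on low counts only through its CMTR1 siRNA 2 libraries, by 1.92. Of the S-phase genes, Mcm5 differed by −0.14 and Cdt1 by −0.15. Among markers, Esrrb differed by −0.21, Tfap2c by −0.40, Pax6 by −0.68, Nes by 0.19, Col1a1 by 0.76, Dcn by 0.99, Zscan4d by 0.73, Zscan4c by 0.59 and Usp17lc by 0.89. The calls of Dnmt3l, Xrcc1, Mcm5, Cdt1, Esrrb, Nes, Zscan4c and Usp17lc in this comparison were each lost on leaving out 1 of several libraries.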

How the results depend on the processing

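Each of the 9 genes was recomputed in 3 comparisons under 19 settings, 513 values in all: 464 kept their direction and their side of the threshold, 30 kept the direction and lost the call, 3 gained a call and 16 changed sign. Of 1192 values of other named genes, 1092 kept both and 100 lost the call. The number of the 9 genes called with CMTR1 siRNA 1 was 2 or 3 in all settings, and with CMTR1 siRNA 2 it was 4 or 5, or 2 to 5 with 1 library left out (2 without control replicate 3, and 3 without control replicate 2 or CMTR1 siRNA 2 replicate 1). Between the siRNAs it was 0 with TMM factors, with no filter, with only the 2 groups, with the replicate block and without Gm26917 in library sizes, and 0 to 2 with 1 library left out. The 2 genes were Dnmt3l and Dnmt3a. The cause was not tested.

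The sign changes were of values near 0. For Dnmt1 with CMTR1 siRNA 1 the log2 fold change was −0.014 with TMM factors, −0.017 with DESeq2 and −0.011 to 0.020 with 1 library left out. For Tdg it was −0.0095 with TMM factors, −0.013 with DESeq2, −0.0061 with the replicate block and −0.012 to 0.045. For Dnmt1 with CMTR1 siRNA 2 it was −0.044 to 0.0097. Between the siRNAs, Dnmt1 ran from −0.051 to 0.0029, Uhrf1 from −0.040 to 0.0027 and Tdg from −0.0044 to 0.038.

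Replicate numbers are shared by the groups, and a correlation over all genes did not show a pairing of the libraries. Each gene enters that correlation alike whatever its depth, so it cannot exclude a pairing in a smaller set of genes. Tet2, Nanog, Tfcp2l1 and Hmces had fewer CPM in replicates 1 and 2 than in replicates 3 and 4 of both CMTR1 siRNAs. Dazl and Mov10l1 did not show this order, and all of these genes were picked after their values were seen. The deviations of same-numbered libraries from their group means correlated at 0.0102 on average (−0.0645 to 0.0696, 10 pairs), and 4 of 11 libraries correlated best with their own number. Single values can still be alike by number: the Tet2 to Tet3 ratio, singled out after its values were seen, was 2.07, 2.14, 2.41 and 2.54 in replicates 1 to 4 of CMTR1 siRNA 1, 2.08, 2.13, 2.41 and 2.54 in those of CMTR1 siRNA 2, and 3.01, 3.31 and 3.38 in control replicates 1 to 3. With the replicate block the FDR of Dnmt3b with CMTR1 siRNA 2 was 0.0891, that of Dnmt3l between the siRNAs 0.0614 and that of Ogt with CMTR1 siRNA 1 0.0597, that of Pou5f1 with CMTR1 siRNA 1 0.0586, and no other call among the 9 genes changed.

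With DESeq2 the TET partner list had 1 call for CMTR1 siRNA 1, as Cxxc4 had no adjusted p and Ogt an FDR of 0.0619. Genes with few counts, such as Tex101 and Cxxc4, limit what the depth can show. Over all genes DESeq2 called 322 lower and 199 higher with CMTR1 siRNA 1 (edgeR 316 and 435), 549 lower and 409 higher with CMTR1 siRNA 2 (edgeR 571 and 991), and 321 lower and 419 higher between the siRNAs (edgeR 475 and 721). Per kilobase of the longest coding transcript the control levels were 174.9 CPM per kb for Dnmt3l, 152.7 for Dnmt3b, 141.6 for Uhrf1, 106.7 for Tet1, 92.4 for Dnmt1, 47.7 for Dnmt3a, 27.6 for Tet2, 14.3 for Tdg and 7.18 for Tet3.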
